A study of Homo sapiens with 12 samples.

Results

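The nuclear-encoded subunits of the mitochondrial respiratory chain and of ATP synthase were followed in 2 lung cancer cell lines before and after inhibition of EGFR. The members are the 77 genes, of 60591 in the table, whose symbol matches the standard names of the subunits: 37 of complex I, 4 of complex II, 9 of complex III, 12 of complex IV and 15 of complex V. NDUFA4, which carries a complex I name but sits in complex IV, was counted with complex IV. The rule used symbols and no measured value, but it was set with earlier results of these data known. Of the 77, 76 had enough reads to be tested. The exception was COX7A1, the muscle isoform of a complex IV subunit, which had between 0 and 8 reads per library.

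The respiratory chain lies in the inner mitochondrial membrane. Complex I (NADH dehydrogenase) and complex II (succinate dehydrogenase) pass electrons to ubiquinone, complex III passes them to cytochrome c, and complex IV (cytochrome c oxidase) passes them to oxygen. Complexes I, III and IV pump protons, and complex V (ATP synthase) uses the returning protons to make ATP. Most subunits are encoded in the nucleus and imported, while a small set of hydrophobic subunits of complexes I, III, IV and V is encoded by mitochondrial DNA, so that each of these complexes draws on both genomes.

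PC9 and H1650 are established non-small cell lung cancer lines, both EGFR-mutant, and the study asked whether changes in gene expression account for their different responses to EGFR inhibitors. Each line was collected as cells labelled wild-type in 0.1% DMSO at the time of drugging (T0) or after 36 h with 1 of a pair of EGFR kinase inhibitors, erlotinib at 10 μM or the covalent inhibitor osimertinib at 0.1 μM. This gave 6 groups of 2 replicates, or 12 libraries of polyadenylated RNA. The study calls the replicates of this RNA sequencing biological, without saying in the sources used here how they were grown, and the p-values measure the spread between these samples. No vehicle library of 36 h was analysed here, so that drug and time in culture cannot be told apart in the changes from T0.

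The libraries held between 17961765 and 26346187 reads assigned to genes. A count of 0 allowed up to 3 reads, or 0.116 to 0.168 CPM (reads of a gene scaled to a common library size with edgeR's TMM factors), which covers counting error only. The 77 members took 0.679% to 0.69% of all reads in PC9 cells at T0, 0.584% to 0.585% with erlotinib and 0.543% to 0.588% with osimertinib. In H1650 cells they took 0.735% in both T0 libraries, 0.748% to 0.756% with erlotinib and 0.775% to 0.794% with osimertinib. The share of reads from mitochondrial DNA moved upward with the drugs in both lines, from 4.54% to 5.17% at T0 to 6.32% to 7.2% in treated PC9 cells, and from 4.36% to 5.36% to between 5.77% and 6.6% in treated H1650 cells. This share counts every gene whose symbol starts with MT-, and not the 13 subunits alone. Its part in the results was not tested. Epithelial identity was checked by 6 markers, which summed to between 6160 and 13300 CPM and all passed the expression filter. The sums of the 5 immune, 3 endothelial and 4 fibroblast markers lay at 0 to 1.28, 0.193 to 5.55 and 0 to 1.07 CPM. In bulk RNA, fewer cells of a kind and less RNA per cell cannot be told apart.

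In PC9 cells, more subunit genes fell than rose with either drug, and a c-ring gene of ATP synthase and cytochrome c1 of complex III had the lowest fold changes. With erlotinib, 42 of the 76 tested members fell and 7 rose (edgeR quasi-likelihood test, adjusted p under 0.05 over all 19108 tested genes). Of all tested genes, 61.8% were called, 29.1% lower and 32.7% higher. The median log2 fold change of the members was -0.265, against 0.07 for all tested genes. With osimertinib, 37 members fell and 11 rose, where 61.4% of all genes were called, 28.7% lower and 32.7% higher, and the members' median was -0.23 against 0.06 for all genes. Both comparisons share the T0 libraries of PC9 cells. Under upper quartile scaling the erlotinib counts became 33 lower and 14 higher, with the median of all genes at 0.165. The PC9 libraries of the drug and of T0 did not overlap, with the drug lower, for 51 members with erlotinib and 42 with osimertinib, and for 36.2% and 36.4% of all tested genes. They did not overlap with the drug higher for 14 and 17 members, and for 42.5% and 42.4% of all tested genes.

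**Figure D1:**
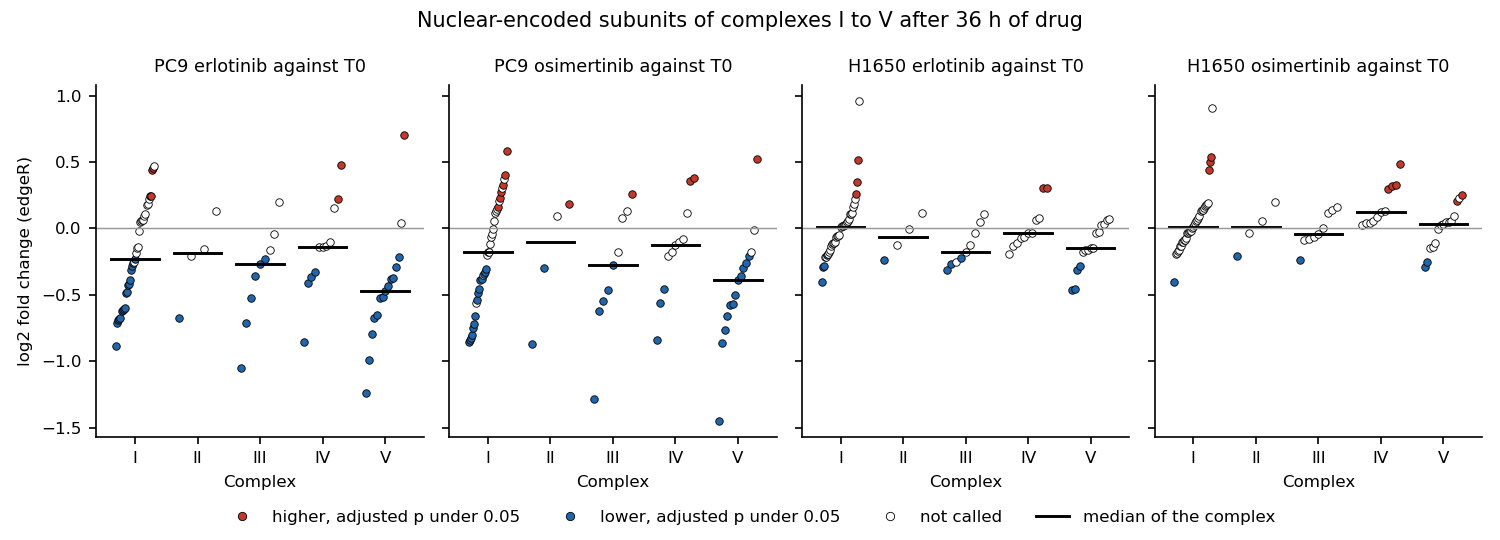
Log2 fold change of each tested subunit gene (vertical axis) by complex (horizontal axis) for each drug against T0 in PC9 and H1650 cells, with 1 point per gene and a bar at the complex's median. Filled points passed the test, red higher and blue lower. In PC9 cells the complex V medians lie at -0.474 with erlotinib and -0.386 with osimertinib, and in H1650 cells most points are open.

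By complex, the PC9 counts with erlotinib were 13 lower and 1 higher of 15 members of complex V, 6 lower of 9 of complex III, 18 lower and 4 higher of 37 of complex I, 4 lower and 2 higher of 11 tested members of complex IV, and 1 lower of 4 of complex II. With osimertinib they were 12 lower and 1 higher for complex V, 5 lower and 1 higher for complex III, 15 lower and 6 higher for complex I, 3 lower and 2 higher for complex IV, and 2 lower and 1 higher for complex II. Of all tested genes, 29.1% were called lower with erlotinib and 28.7% with osimertinib. The shares lower were 86.7% and 80% for complex V, 66.7% and 55.6% for complex III, and 48.6% and 40.5% for complex I. For complex IV they were 36.4% and 27.3%, and for the 4 genes of complex II 25% and 50%. The median log2 fold change with erlotinib was lowest for complex V (-0.474), followed by complex III (-0.267), complex I (-0.23), complex II (-0.182) and complex IV (-0.136). With osimertinib the order was complex V (-0.386), complex III (-0.277), complex I (-0.177), complex IV (-0.126) and complex II (-0.104). The differences between complexes were not tested.

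The levels were also summed over the members of each complex. In PC9 cells the complex V sum was 2358 and 2352 CPM at T0, 1574 and 1600 with erlotinib, and 1536 and 1688 with osimertinib. The complex III sum was 1218 and 1231 at T0, 911.8 and 932.2 with erlotinib, and 879.5 and 968.6 with osimertinib. The complex I sum was 2287 and 2253 at T0, 2020 and 2011 with erlotinib, and 1927 and 2090 with osimertinib. For these complexes every treated PC9 library lay below both T0 libraries. For complex IV, 1 osimertinib library of PC9 cells, at 1138 CPM, lay between the T0 libraries at 1129 and 1155.

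**Figure D2:**
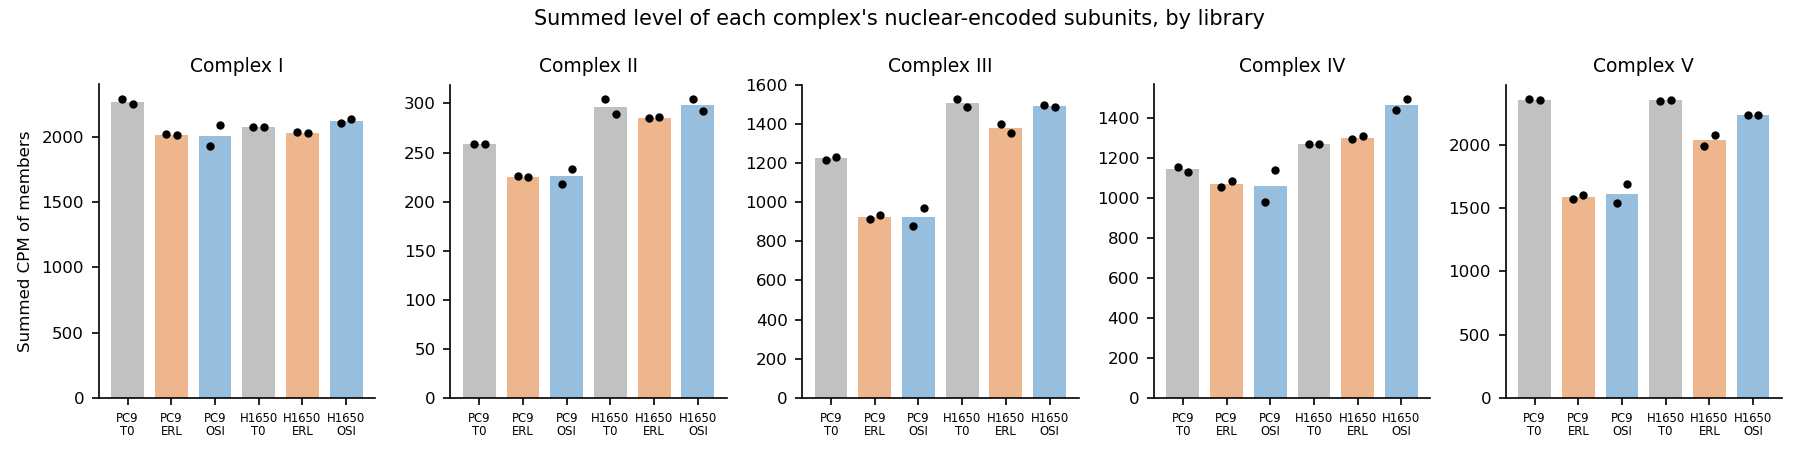
Summed CPM of the nuclear-encoded members (vertical axis, from 0) for complexes I to V in the 6 groups, with bars at the mean and points for the 2 libraries. The complex V sum was 2355 CPM on average in PC9 cells at T0 and 1587 with erlotinib, while in H1650 cells it was 2351 at T0 and 2036 with erlotinib.

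Complex V couples a membrane rotor to a catalytic head. All 5 tested genes of the catalytic head (F1) fell with both drugs in PC9 cells. ATP5F1B, the catalytic beta subunit, was at 766.6 and 776.7 CPM at T0, 444.8 and 446.9 with erlotinib, and 426.1 and 482.9 with osimertinib. Its log2 fold change was -0.79 ± 0.071 (SE) with erlotinib and -0.76 ± 0.071 with osimertinib (edgeR, adjusted p = 1.08e-10 and 2.1e-10). ATP5F1A, the alpha subunit, fell from 290.3 and 298.7 CPM to 205.1 and 205.2 with erlotinib and to 191.3 and 204.2 with osimertinib. In both genes every treated library lay below both T0 libraries, and for ATP5F1B the libraries of the 2 drugs overlapped. ATP5F1C, ATP5F1D and ATP5F1E, the gamma, delta and epsilon subunits of the central stalk, fell by between 0.20 (ATP5F1C with osimertinib) and 0.66 (ATP5F1D with osimertinib) on the log2 scale.

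The 4 genes of the peripheral stalk, which holds the head still against the turning rotor, fell with both drugs as well. ATP5PB, the b subunit, fell from 172.6 and 186.3 CPM at T0 to 108.2 and 116.2 with erlotinib and 112.4 and 129.3 with osimertinib, and its log2 fold changes were -0.68 ± 0.077 and -0.57 ± 0.077. ATP5PF, ATP5PO and ATP5PD had log2 fold changes between -0.47 and -0.22 with erlotinib and between -0.39 and -0.26 with osimertinib. Of 3 other membrane subunits, ATP5MF fell with both drugs, at -0.65 and -0.50, with 8.6% of its exon bases shared with the readthrough gene ATP5MF-PTCD1, and ATP5MG with erlotinib only by the test, at -0.37. ATP5ME, a small subunit of the membrane part, did not pass the test and stayed between 11.65 and 13.57 CPM in the 6 PC9 libraries. Of the annotated exon bases of ATP5ME, 61.6% overlap MYL5 on the opposite strand.

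The 3 genes of the c-ring, the rotor that protons turn, did not move together. ATP5MC1, ATP5MC2 and ATP5MC3 encode the same mature subunit behind different targeting peptides. The coding ends of ATP5MC1 and ATP5MC2 are shown because they make this visible: they are the last 225 bases before the stop codon of each GENCODE 29 transcript on GRCh38, written 5′ to 3′ on the coding strand, with the bases that differ in capitals. The ATP5MC1 stretch spans 2 exons within chr17:48895222-48895766 on the plus strand, and the ATP5MC2 stretch spans 2 exons within chr12:53665317-53669260 on the minus strand.
ATP5MC1: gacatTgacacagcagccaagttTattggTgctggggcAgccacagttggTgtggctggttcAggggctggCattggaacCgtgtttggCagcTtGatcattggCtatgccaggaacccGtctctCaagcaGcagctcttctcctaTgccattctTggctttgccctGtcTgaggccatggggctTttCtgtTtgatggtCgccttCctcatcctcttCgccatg
ATP5MC2: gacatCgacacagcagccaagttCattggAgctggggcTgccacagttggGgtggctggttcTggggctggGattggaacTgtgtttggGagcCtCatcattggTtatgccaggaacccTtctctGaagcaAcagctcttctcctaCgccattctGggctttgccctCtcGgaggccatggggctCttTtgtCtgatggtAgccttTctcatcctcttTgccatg
They differed at 25 of 225 bases (88.9% identical) and in 24 of 75 codons. All 24 of these codons encode the same residue in both genes, and the longest run without a difference was 17 bases.

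ATP5MC1, of which these coding ends are shown, had 38.67 and 37.51 CPM in PC9 cells at T0, 15.86 and 16.4 with erlotinib, and 13.83 and 14.13 with osimertinib. Its log2 fold changes of -1.24 ± 0.094 and -1.45 ± 0.097 were the lowest of all members with each drug (edgeR, adjusted p = 3.37e-12 and 2.54e-13). ATP5MC3 fell from 319.6 and 300.4 CPM to 152.1 and 159.3 with erlotinib and to 167.2 and 174.1 with osimertinib, with log2 fold changes of -0.99 ± 0.070 and -0.86 ± 0.070. ATP5MC2 moved the other way, rising from 86.11 and 84.01 CPM to 131.8 and 145.4 with erlotinib and 116.4 and 128 with osimertinib. Its log2 fold change of 0.70 ± 0.078 with erlotinib was the highest of the members called, and with osimertinib it was 0.52 ± 0.078 (edgeR, adjusted p = 7.25e-09 and 1.44e-06). For all 3 genes the treated PC9 libraries and the T0 libraries did not overlap.

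Counted per length, as a share of the 3 genes' reads per kilobase, ATP5MC3 was the largest of the 3 in PC9 cells at T0, with 55.7% ± 0.62 (SD, n = 2), and ATP5MC2 held 26.6% ± 0.41. With erlotinib ATP5MC2 held 54.9% ± 0.97 and ATP5MC3 35.5% ± 0.69, and with osimertinib they held 50.6% ± 1.0 and 40.7% ± 0.74. ATP5MC1 went from 17.8% to 9.55% and 8.65%. The shares divide by deposited lengths of 2615, 3904 and 6780 bases for ATP5MC1, ATP5MC2 and ATP5MC3, so their order depends on the gene models. In CPM, ATP5MC3 stayed above ATP5MC2 in treated PC9 cells. The means were 155.7 against 138.6 with erlotinib and 170.6 against 122.2 with osimertinib. In H1650 cells the shares moved less: ATP5MC2 held 40.4% ± 1.7 at T0, 46.7% ± 0.11 with erlotinib and 45.9% ± 0.69 with osimertinib. The summed level of the 3 genes in PC9 cells was 444.4 and 421.9 CPM at T0, 299.7 and 321.1 with erlotinib, and 297.4 and 316.3 with osimertinib. In H1650 cells it was 334.5 and 342.7 at T0, 308.8 and 315.3 with erlotinib, and 359.2 and 352.4 with osimertinib.

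**Figure D3:**
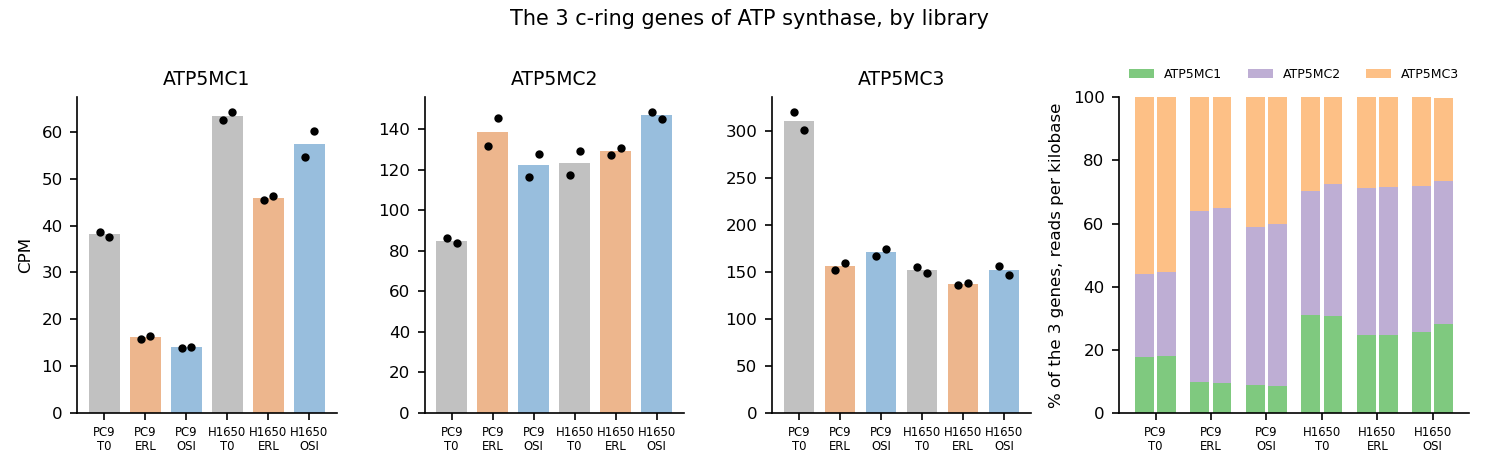
CPM of ATP5MC1, ATP5MC2 and ATP5MC3 in the 6 groups (bars from 0 at the mean, points for the 2 libraries) and, at the right, the percentage of the 3 genes' reads per kilobase in each library. In PC9 cells ATP5MC2 rose while the other 2 genes fell, and its share went from 26.6% at T0 to 54.9% with erlotinib.

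Complex III takes electrons from ubiquinol through 2 nuclear-encoded redox proteins and the mitochondrially encoded cytochrome b. Both redox genes fell with both drugs in PC9 cells. CYC1, which encodes cytochrome c1, fell from 298.8 and 276.9 CPM at T0 to 146.8 and 131.9 with erlotinib and to 119.4 and 116.6 with osimertinib. Its log2 fold changes were -1.05 ± 0.084 and -1.29 ± 0.086 (edgeR, adjusted p = 1.33e-11 and 1.96e-13), the second lowest of the members with each drug. UQCRFS1, the Rieske iron-sulfur protein, fell from 129.5 and 129.1 CPM to 77.53 and 80.15 with erlotinib and 82.82 and 85.16 with osimertinib, at -0.71 ± 0.071 and -0.62 ± 0.071.

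The core proteins of complex III, which carry no redox centre, moved less. UQCRC1 did not pass the test with either drug in PC9 cells, with 162.4 and 163.2 CPM at T0, 162.1 and 154.2 with erlotinib and 163.5 and 179.7 with osimertinib. UQCRC2 fell by 0.23 on the log2 scale with erlotinib and by 0.28 with osimertinib. Of the small subunits, UQCRH, the hinge protein, fell with both drugs (-0.52 and -0.54), as did UQCR10 (-0.36 and -0.46), while UQCRQ passed with erlotinib alone (-0.27). UQCRB, which binds ubiquinone, passed with osimertinib alone and in the other direction (0.26), from 92.66 and 99.16 CPM to 102 and 128.5. UQCR11 did not pass with either drug.

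Complex II, which also works in the citric acid cycle, has no mitochondrially encoded subunit. SDHB, its iron-sulfur subunit, was at 82.27 and 82.28 CPM in PC9 cells at T0, at 52.9 and 50.44 with erlotinib and at 43.98 and 46.03 with osimertinib, with log2 fold changes of -0.67 ± 0.077 and -0.87 ± 0.078 (edgeR, adjusted p = 1.36e-08 and 1.18e-10). The treated libraries lay below T0 without overlap. SDHA, the flavoprotein that oxidises succinate, did not pass with either drug and lay between 31.58 and 43.62 CPM in PC9 libraries. Its reads are uncertain, since 3 annotated SDHA pseudogenes held 12117 reads over the 12 libraries, or 58.4% of the reads on the gene and its pseudogenes together. Of the membrane anchors, SDHC rose by 0.19 and SDHD fell by 0.30 with osimertinib.

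In complex I, the largest of the complexes, 4 of 7 core genes fell with erlotinib in PC9 cells, and 3 fell with osimertinib. Of all tested genes, 29.1% and 28.7% were called lower with these drugs. NDUFS1, which holds iron-sulfur clusters of the arm that takes electrons from NADH, was at 93.57 and 95.12 CPM at T0, 63.38 and 71.99 with erlotinib and 65.11 and 69.63 with osimertinib, with log2 fold changes of -0.48 ± 0.081 and -0.49 ± 0.082. NDUFS3 fell by 0.61 and 0.66 (with 19.6% of its exon bases shared with PTPMT1), NDUFS8, another iron-sulfur subunit, fell by 0.49 and 0.54, and NDUFS7 fell by 0.42 with erlotinib. NDUFV1, which binds NADH and flavin, did not pass with either drug and lay between 182.7 and 210.4 CPM in the 6 PC9 libraries. NDUFV2 is uncertain, with 302 reads in all libraries against 491 on its annotated pseudogene.

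Of the 30 accessory genes of complex I, which surround the core, 14 fell and 4 rose with erlotinib in PC9 cells, and 12 fell and 5 rose with osimertinib. The shares called, 60% and 56.7%, lay near those of all tested genes, 61.8% and 61.4%. The shares lower were 46.7% and 40%, against 29.1% and 28.7% of all tested genes. NDUFAB1, the mitochondrial acyl carrier protein, had the lowest log2 fold change of the complex with erlotinib. It was at 111.3 and 114.3 CPM at T0, 61.63 and 60.59 with erlotinib, and 62.24 and 67.5 with osimertinib (-0.88 ± 0.074 and -0.80 ± 0.074, edgeR adjusted p = 2.74e-11 and 2.29e-10). NDUFB9 had the lowest with osimertinib, at 116.3 and 122 CPM at T0, 77.75 and 70.58 with erlotinib and 63.72 and 68.28 with osimertinib (-0.68 ± 0.078 and -0.85 ± 0.079). Of its exon bases, 21% lie opposite MTSS1 and TATDN1. NDUFA6, NDUFA12, NDUFS6 and NDUFC1 fell with both drugs as well, by between 0.61 (NDUFC1 with erlotinib) and 0.84 (NDUFA12 with osimertinib) on the log2 scale.

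Against these, 3 accessory genes of complex I rose with both drugs in PC9 cells. NDUFA3 was at 23.95 and 17.42 CPM at T0, 30.19 and 25.88 with erlotinib, and 31.54 and 30.55 with osimertinib (0.44 ± 0.13 and 0.59 ± 0.13). NDUFB5 was at 67.76 and 68.76 CPM at T0, 86.35 and 100.8 with erlotinib, and 85.09 and 95.98 with osimertinib (0.46 ± 0.084 and 0.41 ± 0.085). NDUFA1 rose by 0.24 and 0.33, with 44.5% of its exon bases opposite RNF113A. NDUFA10 rose with erlotinib alone by the test (0.24), and NDUFA2 and NDUFB4 with osimertinib alone (0.28 and 0.23). A call with 1 drug and not the other does not show a difference between the drugs.

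The nuclear-encoded subunits of complex IV surround a catalytic core that mitochondrial DNA encodes, and their changes in PC9 cells went both ways. COX8A was at 111.3 and 98.67 CPM at T0, 65.03 and 51.42 with erlotinib, and 53.92 and 63.63 with osimertinib (-0.85 ± 0.10 and -0.84 ± 0.10, edgeR adjusted p = 3.58e-08 and 5.32e-08). Of its exon bases, 34.5% are shared with AP000721.1 on the same strand. COX5A fell by 0.32 and 0.45, and NDUFA4 by 0.36 and 0.56. COX5B, the zinc-binding subunit, moved upward, from 108.4 and 100.5 CPM at T0 to 147.4 and 143.1 with erlotinib and 121.2 and 147.1 with osimertinib (0.48 ± 0.081 and 0.36 ± 0.081). COX6C rose by 0.22 and 0.38, and COX7B fell by 0.41 with erlotinib. COX4I1, the subunit that binds adenine nucleotides, did not pass with either drug and lay between 178.5 and 210.6 CPM. COX6A1, COX6B1, COX7A2 and COX7C did not pass either.

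In H1650 cells, fewer subunit genes passed the test than in PC9 cells. With erlotinib, 12 members fell and 5 rose of 76, where 36.5% of all tested genes were called, 18.5% lower and 18% higher. With osimertinib, 5 members fell and 9 rose, where 35.7% of all genes were called, 17.9% lower and 17.8% higher. The members' median log2 fold change was -0.06 with erlotinib (all tested genes 0.01) and 0.04 with osimertinib (all tested genes 0). The direction of such a small median depends on the scaling. With erlotinib the members' share of all reads moved upward, from 0.735% to 0.756% and 0.748%. The TMM factors were 0.9782 and 0.9846 in the T0 libraries and 1.08 and 1.062 in the erlotinib libraries. Both comparisons share the H1650 T0 libraries, and the counts rest on few libraries: without H1650 T0 replicate 1 they were 10 with erlotinib and 9 with osimertinib, and without H1650 osimertinib replicate 2 the osimertinib count was 9, with 1 lower and 8 higher. With erlotinib the libraries of drug and T0 did not overlap for 34 members that were lower and 14 that were higher (32.5% and 33.1% of all genes), and with osimertinib for 15 and 31 (32.3% and 32.5% of all genes).

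The lowest log2 fold change of a member in H1650 cells with erlotinib was that of ATP5MC1, which was at 62.45 and 64.17 CPM at T0, 45.35 and 46.28 with erlotinib, and 54.6 and 60.26 with osimertinib. It fell with erlotinib (-0.47 ± 0.084, edgeR adjusted p = 6.52e-05) and did not pass with osimertinib. ATP5PB fell with both drugs, from 189 and 188.4 CPM to 135.7 and 138.8 with erlotinib and 158.8 and 150.5 with osimertinib (-0.46 ± 0.076 and -0.29 ± 0.076), the osimertinib call being lost without H1650 osimertinib replicate 2 (edgeR, adjusted p = 0.0591). NDUFB9 fell with both as well, from 121.2 and 125.2 CPM to 89.57 and 96.6 and to 95.46 and 90.64 (-0.40 ± 0.077 and -0.41 ± 0.077). In all 3 genes the erlotinib libraries lay below both T0 libraries. UQCRC1, which did not pass in PC9 cells, fell in H1650 cells with erlotinib, from 217.8 and 197.5 CPM to 175.7 and 158.7 (-0.31). That call was lost without H1650 T0 replicate 1 (-0.24). ATP5F1B, SDHB and CYC1 fell with both drugs in H1650 cells, at -0.31 and -0.25, -0.24 and -0.21, and -0.22 and -0.23. The osimertinib call of ATP5F1B was lost without H1650 T0 replicate 2 or H1650 osimertinib replicate 2 (edgeR, adjusted p = 0.0506 and 0.0659). The CYC1 and SDHB calls rest on single libraries as well. Without H1650 T0 replicate 1 none of the 4 passed, with edgeR adjusted p between 0.134 (SDHB with erlotinib) and 0.359 (CYC1 with erlotinib). The CYC1 calls were also lost without replicate 2 of the drug in question (adjusted p = 0.28 and 0.354), and the SDHB calls without replicate 1 of it (adjusted p = 0.117 and 0.12), the osimertinib one also without replicate 2 (adjusted p = 0.141).

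Of the 11 tested complex IV genes, 2 rose with erlotinib and 4 with osimertinib in H1650 cells, where 18% and 17.8% of all tested genes were called higher. COX7C was at 140.3 and 160.9 CPM at T0, 176.9 and 195.8 with erlotinib, and 195.7 and 225.1 with osimertinib (0.31 ± 0.10 and 0.48 ± 0.10). The erlotinib call did not pass without H1650 T0 replicate 1 or H1650 erlotinib replicate 2 (0.21 and 0.22, edgeR adjusted p = 0.2 and 0.163). COX5B rose with both drugs, from 106.7 and 108.6 CPM to 133 and 132.8 and to 135.9 and 132.5 (0.30 ± 0.081 and 0.32 ± 0.081). COX6B1 and COX6C rose with osimertinib, by 0.33 and 0.30. Of complex I, NDUFA3 (0.52 and 0.54), NDUFA2 (0.35 and 0.50) and NDUFA1 (0.26 and 0.44) rose with both drugs. With erlotinib, the NDUFA3 call was lost without H1650 erlotinib replicate 1 (0.34, edgeR adjusted p = 0.0582) and the NDUFA2 call without H1650 T0 replicate 2 (0.27, adjusted p = 0.085).

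Set against the same drug in PC9 cells, 11 members fell with erlotinib in both lines, which is 26.2% of the 42 that fell in PC9 cells and 91.7% of the 12 that fell in H1650 cells. Over all tested genes, those lower in both lines with erlotinib were 42.7% of those lower in PC9 cells and 67.4% of those lower in H1650 cells. The 11 members were NDUFS3, NDUFA9, NDUFAB1 and NDUFB9 of complex I, SDHB, CYC1, UQCRFS1, and ATP5F1B, ATP5PB, ATP5PF and ATP5MC1 of complex V. With osimertinib, 5 members fell in both lines, NDUFB9, SDHB, CYC1, ATP5F1B and ATP5PB, which is 13.5% of the 37 in PC9 cells and 100% of the 5 in H1650 cells, against 42.7% and 68.4% over all tested genes. NDUFA1, NDUFA3 and COX5B rose with erlotinib in both lines, and these 3 with NDUFA2, COX6C and ATP5MC2 with osimertinib. The H1650 osimertinib call of ATP5MC2 was lost without H1650 T0 replicate 1 or H1650 osimertinib replicate 1 (edgeR, adjusted p = 0.177 and 0.0759). ATP5MF was the 1 member called in opposite directions, lower in PC9 cells (-0.50) and higher in H1650 cells (0.21) with osimertinib, and its H1650 call was lost in 7 of 19 other settings.

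The difference between the lines was tested directly, by subtracting the log2 change of PC9 cells from that of H1650 cells. With erlotinib it passed for 30 of 76 members, 27 higher in H1650 and 3 lower, where 40.8% of all tested genes passed, 21.1% higher and 19.8% lower. With osimertinib it passed for 37, 36 higher and 1 lower, where 41.9% of all tested genes passed, 21.5% higher and 20.5% lower. By complex, with osimertinib, the calls were 12 of 37 for complex I, 2 of 4 for complex II, 6 of 9 for complex III, 6 of 11 for complex IV and 11 of 15 for complex V.

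ATP5MC1 had the largest of these differences with osimertinib, 1.31 ± 0.13 (edgeR, adjusted p = 1.93e-09), followed by CYC1, 1.05 ± 0.12 (adjusted p = 2.47e-08). With erlotinib the largest were ATP5MC3 at 0.85 ± 0.10, CYC1 at 0.82 ± 0.12 and ATP5MC1 at 0.77 ± 0.13. The largest in the other direction was ATP5MC2 with erlotinib, -0.64 ± 0.11 (adjusted p = 2.19e-05), which rose more in PC9 than in H1650 cells. It was the single member called lower with osimertinib (-0.27, adjusted p = 0.0465), and that call was lost in 11 of 18 other settings. UQCRB and NDUFB5 were the others called lower with erlotinib, at -0.38 and -0.30, and these calls were lost in 4 and 12 of 18 other settings. UQCRB was lost without PC9 T0 replicate 1, PC9 erlotinib replicate 2, H1650 T0 replicate 2 or H1650 erlotinib replicate 1 (edgeR, adjusted p between 0.109 and 0.154). Differences that passed with both drugs also included NDUFS1 (0.51 and 0.50), SDHB (0.43 and 0.66), UQCRFS1 (0.44 and 0.54) and ATP5F1A (0.36 and 0.63).

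**Figure D4:**
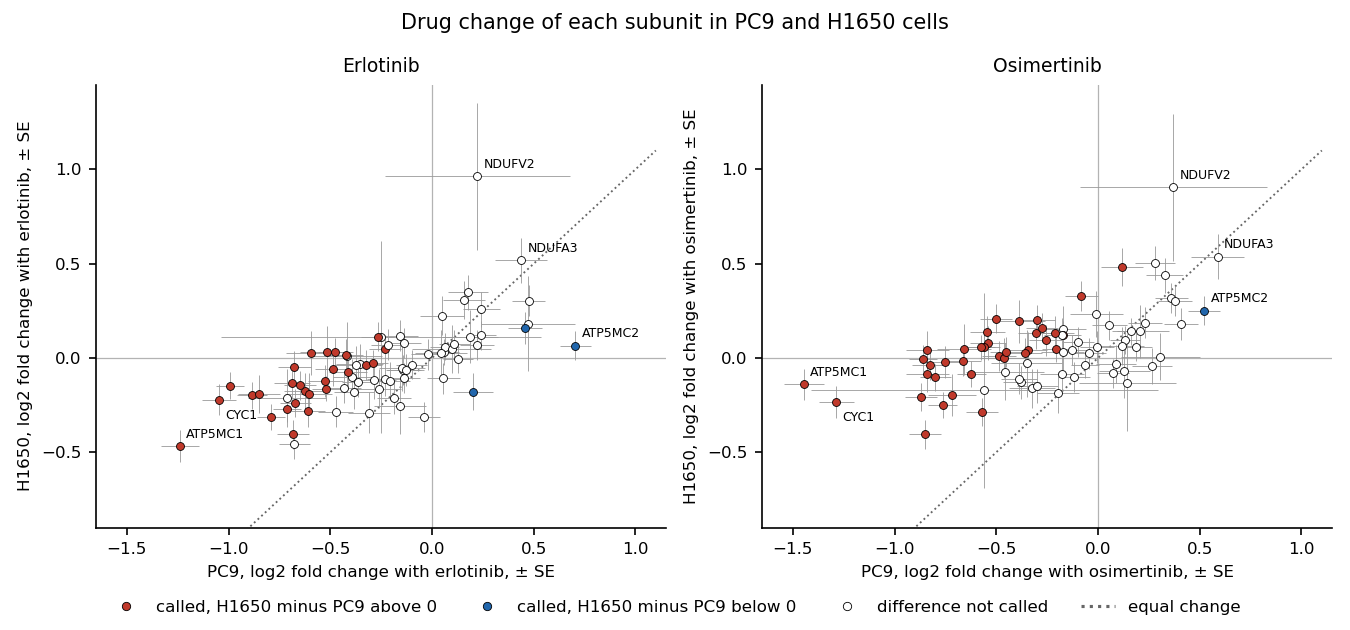
Log2 fold change from T0 of each tested subunit in PC9 cells (horizontal axis) against H1650 cells (vertical axis) for each drug, with bars of 1 SE and a dotted line where the lines would change equally. Filled points are those whose difference between the lines passed the test, red above the line and blue below it. ATP5MC1 and CYC1 lie far to the left, with changes of -1.45 and -1.29 in PC9 cells with osimertinib.

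Between the drugs, given at different doses, few subunits differed within a line. In PC9 cells 2 of 76 members differed, where 16.6% of all tested genes did, 10.1% higher and 6.41% lower with osimertinib. SDHA, uncertain for its pseudogenes, was higher (0.30 ± 0.098) and NDUFB10 lower (-0.23 ± 0.077) with osimertinib, and these calls were lost in 6 and 14 of 19 other settings. Leaving out PC9 osimertinib replicate 1 left 0 calls in the edgeR test (15 members at an unadjusted p under 0.05), and DESeq2 gave 0 as well (11 members at an unadjusted p under 0.05). With the replicate block more members passed, as the closing section gives. A p that misses the threshold does not show that the drugs act alike. For ATP5MC1 the difference of -0.21 ± 0.10 did not pass (edgeR, adjusted p = 0.188), and for CYC1 it was -0.24 ± 0.085 (adjusted p = 0.0545).

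In H1650 cells 6 members were higher with osimertinib than with erlotinib, where 8.75% of all tested genes differed, 5.02% higher and 3.73% lower. They were ATP5F1A, ATP5MC1 and ATP5MF of complex V, NDUFB4 and NDUFS3 of complex I, and COX6B1 of complex IV, with log2 differences between 0.22 (ATP5F1A) and 0.35 (ATP5MF). ATP5MF was at 86.68 and 94 CPM with erlotinib and 112.6 and 118.5 with osimertinib, without overlap. The H1650 libraries did not overlap for 35 members that were higher with osimertinib and 3 that were lower, where 24.6% and 24.1% of all tested genes did not. The count of 6 rests on single libraries: it was 0 without H1650 erlotinib replicate 1 (edgeR, with 14 members at an unadjusted p under 0.05), 1 without H1650 erlotinib replicate 2 or H1650 osimertinib replicate 2, and 3 without either of the PC9 T0 replicates, which enter the shared estimate of spread. It was higher in other settings, at 10 with upper quartile scaling, 11 with DESeq2 and 17 with the replicate block, where 14% of all genes were called.

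The untreated lines already differed in many subunits. At T0, 32 of 76 members were higher in H1650 than in PC9 cells and 21 were lower, where 69.6% of all tested genes differed, 35.8% higher and 33.8% lower. The T0 libraries of the lines did not overlap for 39 members that were higher and 28 that were lower in H1650 cells (43.2% and 40.8% of all tested genes). NDUFB1, an accessory subunit of complex I, differed most, with 3.983 and 3.554 CPM in PC9 cells and 25.23 and 30.4 in H1650 cells (2.88 ± 0.16, edgeR adjusted p = 2.72e-15). COX6C was at 69.42 and 72.36 CPM in PC9 cells and 152.9 and 163.9 in H1650 cells (1.16 ± 0.082), and NDUFB11, of whose exon bases 44.9% lie opposite RBM10, at 36.95 and 36.92 against 78.31 and 70.53 (1.01 ± 0.083).

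In the other direction, UQCR11, a small subunit of complex III, was at 23.44 and 24.93 CPM in PC9 cells and 10.26 and 10.61 in H1650 cells (-1.21 ± 0.14). ATP5F1D was at 95.28 and 78.63 CPM against 48.13 and 35.65 (-1.06 ± 0.13), and ATP5MC3 at 319.6 and 300.4 against 154.7 and 149 (-1.03 ± 0.070, edgeR adjusted p = 3.08e-13). For these genes the libraries of the lines did not overlap. The other c-ring genes were higher in H1650 cells, ATP5MC1 by 0.73 and ATP5MC2 by 0.54, so that the order of the 3 shares per length differed between the lines, with ATP5MC3 first in PC9 cells and ATP5MC2 first in H1650 cells. This order depends on the deposited gene lengths. In CPM, ATP5MC3 was first in both lines, with means of 310 against 85.06 for ATP5MC2 in PC9 cells and 151.9 against 123.4 in H1650 cells. By complex, 6 of 9 members of complex III were higher in H1650 cells and 1 lower, 7 of 15 of complex V were higher and 5 lower, and 13 of 37 of complex I were higher and 12 lower. Of all tested genes, 35.8% were higher and 33.8% lower. The complex V sums overlapped, at 2358 and 2352 CPM in PC9 and 2345 and 2356 in H1650 cells, while the complex III sums did not overlap, at 1218 and 1231 against 1525 and 1484.

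**Figure D5:**
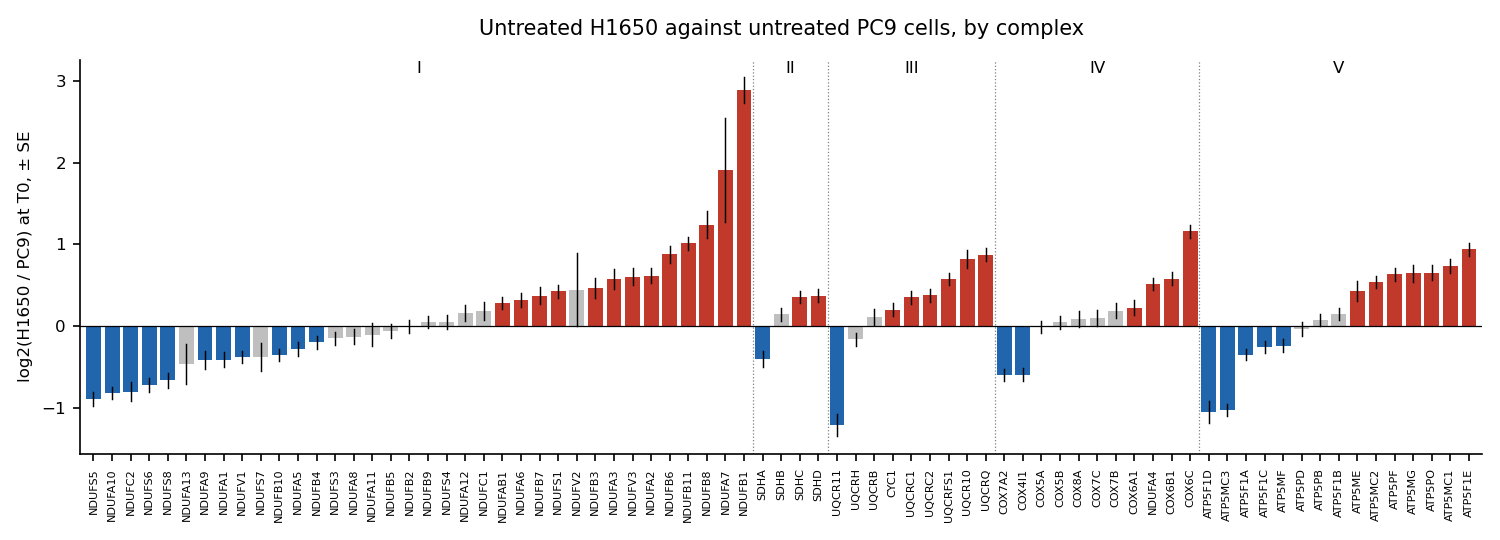
Log2 ratio of H1650 to PC9 at T0 for the tested subunits reported here (vertical axis, bars from 0, lines of 1 SE), grouped by complex and ordered within it. Red bars were higher and blue bars lower in H1650 cells by the test, and grey bars did not pass. NDUFB1 stands at 2.88 and UQCR11 at -1.21, and every complex holds bars of both directions.

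Levels were set per kilobase of the deposited gene length to compare genes with each other. These lengths equal the exon bases of GENCODE 29 for 23 of 77 members and are far from them for some, such as SDHC (3709 against 14160 bases) and NDUFA1 (421 against 766), so the order of genes depends on the gene models. On this scale ATP5F1B was the highest member at T0 in both lines, with 345 CPM per kilobase in PC9 cells and 382 in H1650 cells. The highest members of the other complexes were NDUFS5 for complex I (304 and 163), CYC1 for complex III (147 and 169), COX8A for complex IV (212 and 226) and SDHB for complex II (35.4 and 39). The median of complex I was 18 in PC9 cells and 16.6 in H1650 cells, against 49.1 and 58.4 for complex IV.

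The promoters of respiratory chain genes are known for sites of NRF1 (nuclear respiratory factor 1), of ETS factors such as GABP (NRF2) and of YY1. Promoters of 300 bases, from 250 bases before the start, were taken from RefSeq (GRCh38.p14) for the 62 members that matched by symbol, 74 promoters in all, since some genes have several starts. The cores were searched on both strands: GCATGCGC for NRF1, CCGGAAG for ETS and ATGGCGG for YY1. Matches of different cores did not overlap in the members. The NRF1 core was found in 20.3% of member promoters and in 3.05% of all 35116 promoters of the table, the ETS core in 28.4% against 10.3%, and the YY1 core in 31.1% against 5.55%. Of the 26 YY1 matches in members, 18 lie after the start base. At least 1 core was found in 55.4% of member promoters, against 16.8% of all. A match is a stretch of letters and not a measured site.

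Members that moved in opposite directions in PC9 cells could hold the same core. Written 5′ to 3′ on each gene's strand, stretches before the start of SDHB, which fell, and of COX5B, which rose, are shown with the matched letters in capitals. SDHB is on the minus strand at chr1:17054171-17054282 (bases 250 to 139 before the start), and COX5B on the plus strand at chr2:97645812-97646039 (bases 250 to 23 before the start).
SDHB: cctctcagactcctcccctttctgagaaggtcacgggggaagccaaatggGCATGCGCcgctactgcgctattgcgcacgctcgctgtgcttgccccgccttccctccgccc
COX5B: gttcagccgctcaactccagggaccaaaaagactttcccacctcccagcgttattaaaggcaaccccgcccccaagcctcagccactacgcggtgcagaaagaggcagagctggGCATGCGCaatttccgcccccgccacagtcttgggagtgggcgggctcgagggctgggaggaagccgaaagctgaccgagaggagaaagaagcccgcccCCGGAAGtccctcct
Both stretches hold the NRF1 core. Both promoters also hold the ETS core, which in SDHB starts 128 bases before the start, outside the stretch shown, and in COX5B 37 and 5 bases before it. SDHB has a YY1 core after the start as well. Among promoters of members called lower with erlotinib in PC9 cells, 54.8% held at least 1 core (23 of 42 promoters), against 57.1% (4 of 7) for those called higher and 56% (14 of 25) for those not called. The single cores were less even. With erlotinib the NRF1 core was in 16.7% of lower and 42.9% of higher promoters, and the ETS core in 26.2% and 28.6%. The YY1 core was in 35.7% and 0%. With osimertinib the NRF1 core was in 18.9% and 50%, the ETS core in 27% and 25%, and the YY1 core in 37.8% and 0%. Only 7 and 8 promoters belonged to members called higher, and these differences were not tested. By complex, at least 1 core was found in 51.3% of promoters of complex I, 66.7% of complex II, 71.4% of complex III, 50% of complex IV and 60% of complex V.

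Regulators of these genes were described from a list of 14, of which 12 were tested. In PC9 cells, 11 fell and 1 rose with erlotinib, and 10 fell and 1 rose with osimertinib, where 29.1% and 28.7% of all tested genes were called lower. The list's median log2 fold changes were -0.45 and -0.766, against 0.0743 and 0.0644 for all tested genes. TFAM, which packages mitochondrial DNA and activates its transcription, was at 157.8 and 170 CPM at T0, 68.8 and 78 with erlotinib, and 62.29 and 64.75 with osimertinib (-1.16 ± 0.078 and -1.37 ± 0.079, edgeR adjusted p = 2.95e-13 and 1e-14). PPRC1, a coactivator of the PGC-1 family, fell by 1.34 and 1.42, and NRF1 by 0.74 and 0.82. GABPA, the DNA-binding subunit of GABP, was the gene that rose, by 0.26 and 0.24. PPARGC1A, the coactivator PGC-1 alpha, had 0 reads in 11 libraries and 2 reads in the other.

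In H1650 cells 2 of the 12 regulators fell and 1 rose with erlotinib, and 3 fell with osimertinib, with medians of -0.0301 and -0.00214 against 0.00508 and 0 for all tested genes. With erlotinib 16.7% of the regulators were lower and 8.33% higher, against 18.5% and 18% of all tested genes. With osimertinib 25% were lower and 0% higher, against 17.9% and 17.8%. TFAM was at 54.01 and 52.44 CPM at T0, below all PC9 libraries, and at 52.37 and 51.58 with erlotinib and 43.53 and 44.01 with osimertinib, where it fell by 0.28. At T0 it was lower than in PC9 cells by 1.62 ± 0.080 on the log2 scale. PPRC1 fell in H1650 cells by 0.44 with erlotinib and 0.53 with osimertinib. The drug change of TFAM differed between the lines by 1.12 ± 0.11 with erlotinib and 1.09 ± 0.11 with osimertinib (edgeR, adjusted p = 3.22e-09 and 6.86e-09).

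Mitochondrial DNA encodes 13 subunits of the chain and of ATP synthase. In PC9 cells 2 rose and 2 fell with erlotinib, and 5 rose and 1 fell with osimertinib, of 13 tested, with median log2 fold changes of -0.0262 and 0.154. In H1650 cells 4 passed with erlotinib and 6 with osimertinib, each of them higher, with medians of 0.101 and 0.224. The shares called were 30.8% and 46.2% in each line, against 61.8% and 61.4% of all tested genes in PC9 cells and 36.5% and 35.7% in H1650 cells. MT-CO1, a core subunit of complex IV, was at 12750 and 11300 CPM in PC9 cells at T0, 17190 and 15930 with erlotinib, and 18040 and 15350 with osimertinib (0.46 ± 0.083 and 0.47 ± 0.083). In H1650 cells it rose by 0.39 and 0.30.

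Assembly factors, which insert cofactors and join subunits without staying in the finished complex, were described from a list of 54, all tested. In PC9 cells 26 fell and 8 rose with erlotinib, and 29 fell and 4 rose with osimertinib. In H1650 cells the counts were 12 lower and 6 higher, and 13 lower and 5 higher. The shares called, 63% and 61.1% in PC9 cells and 33.3% with each drug in H1650 cells, lay near those of all tested genes (61.8%, 61.4%, 36.5% and 35.7%). Their directions were less even. In PC9 cells 48.1% and 53.7% of the list were lower, against 29.1% and 28.7% of all tested genes. In the same cells 14.8% and 7.41% were higher, against 32.7% with each drug. In H1650 cells 22.2% and 24.1% were lower, against 18.5% and 17.9%, and 11.1% and 9.26% higher, against 18% and 17.8%. The list's median log2 fold changes were -0.28 and -0.366 in PC9 cells and -0.0507 and -0.016 in H1650 cells. NDUFAF4, of complex I, was at 34.48 and 34.06 CPM in PC9 cells at T0, 10.66 and 11.63 with erlotinib, and 9.11 and 9.755 with osimertinib (-1.62 ± 0.12 and -1.86 ± 0.13), and it fell in H1650 cells by 0.47 and 0.51. COA7, of complex IV, fell in PC9 cells by 1.56 and 1.93, and TMEM70, of complex V, by 1.20 and 1.27. SURF1, of complex IV, rose in PC9 cells from 26.57 and 22.75 CPM to 53.12 and 49.07 with erlotinib and 43.79 and 42.49 with osimertinib (1.05 ± 0.10 and 0.81 ± 0.10). TMEM242, of complex V, rose by 1.00 and 0.94.

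Of 9 tested genes among 13 related subunits and isoforms outside the naming rule, 4 fell and 2 rose in PC9 cells with each drug (66.7% called, against 61.8% and 61.4% of all tested genes, and median log2 fold changes of -0.333 and -0.327). CYCS, cytochrome c, which carries electrons from complex III to complex IV, was at 298.8 and 326.4 CPM at T0, 90.92 and 105.8 with erlotinib, and 84.12 and 86.39 with osimertinib (-1.67 ± 0.082 and -1.87 ± 0.083, edgeR adjusted p = 2.78e-16 and 2.51e-17). It fell in H1650 cells by 0.63 and 0.54, and pseudogenes named after CYCS can share its reads. NDUFA4L2, a relative of NDUFA4, had 9 and 5 reads in PC9 cells at T0, 251 and 235 with erlotinib, and 23 and 23 with osimertinib (log2 fold changes of 4.84 ± 0.33 and 1.73 ± 0.44). In H1650 cells it had 14 and 19 reads at T0, 77 and 102 with erlotinib, and 19 and 16 with osimertinib. COX7B2 had between 72 and 115 reads in PC9 libraries and 0 or 1 in H1650 libraries.

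Of 13 tested mitochondrial genes outside the chain, from the citric acid cycle, the outer membrane, protein import and metabolite carriers, 10 fell with erlotinib and 11 with osimertinib in PC9 cells, and 11 and 9 fell in H1650 cells, with every call lower. Of all tested genes, 29.1%, 28.7%, 18.5% and 17.9% were called lower in these comparisons. The medians were -0.535 and -0.66 in PC9 cells, against 0.0743 and 0.0644 for all genes, and -0.331 and -0.257 in H1650 cells, against 0.00508 and 0. SLC25A5, the adenine nucleotide carrier that exports ATP, was at 726.2 and 729.3 CPM in PC9 cells at T0, 307.3 and 308.8 with erlotinib, and 267.6 and 298 with osimertinib (-1.24 ± 0.071 and -1.36 ± 0.071), and it fell in H1650 cells by 0.39 and 0.48. IDH3A, a subunit of the NAD-dependent isocitrate dehydrogenase, fell in PC9 cells by 1.17 and 1.74.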

How the data were processed

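RNA of PC9 and H1650 cells was sequenced by the study in 12 libraries. The deposited values are raw read counts per gene, which the authors made with the DolphinNext pipeline and featureCounts on GRCh38. The aligner, annotation release and strandedness are not given in the sources used here, so reads of overlapping genes may be shared. The gene lengths deposited with the counts were used for levels per kilobase. Libraries held 17961765 to 26346187 reads.

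Genes were kept by filterByExpr (19108 of 60591) and fitted with edgeR 4.0.16 (R 4.3.3) by quasi-likelihood over all 12 libraries in 6 groups, with TMM factors and Benjamini-Hochberg adjustment over all tested genes at 0.05. Levels are TMM-normalised CPM. The SE of a log2 fold change was taken as its size over the square root of F. Other settings were RLE and upper quartile scaling, no filter, at least 10 counts in every library, a fit per line, a replicate block, DESeq2 1.42.0, NDUFA4 counted in complex I, and each library left out.

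The members and lists were chosen with earlier results of these data known. Named members were the 3 highest and 3 lowest called log2 fold changes per comparison with a mean of at least 10 CPM, members called in opposite directions in the lines, and 17 fixed by role. Of the lists, the 2 highest and 2 lowest called genes and the regulators PPARGC1A, NRF1, GABPA and TFAM were named. Other genes named were chosen after their values were seen. A member fixed by role is counted but not reported by name here. Overlaps came from GENCODE 29 and promoters from RefSeq (GRCh38.p14), which held 62 of 77 members. Overlaps are given in the text for some genes only. Others overlap genes on the opposite strand as well, such as NDUFS7 (49.1% of its exon bases) and ATP5PF (23.1%, with GABPA and JAM2).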

Additional observations from a re-analysis of the deposited data

Results flagged for a closer look

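Each difference here is the change with a drug in H1650 cells minus the change in PC9 cells, on the log2 scale, and each passed the edgeR test of that difference itself. Over the 76 tested members it passed for 30 with erlotinib (39.5%) and 37 with osimertinib (48.7%), where 40.8% and 41.9% of all tested genes passed. With erlotinib 27 members were higher in H1650 and 3 lower, where 21.1% and 19.8% of all tested genes were. With osimertinib 36 were higher and 1 lower, where 21.5% and 20.5% of all tested genes were. In complex V, ATP5MC1 differed by 0.77 with erlotinib and 1.31 with osimertinib, ATP5MC3 by 0.85 and 0.86, ATP5F1B by 0.48 and 0.51, and ATP5F1A by 0.36 and 0.63. ATP5MC2 differed in the other direction, by -0.64 and -0.27. In complex III, CYC1 differed by 0.82 and 1.05 and UQCRFS1 by 0.44 and 0.54, while UQCRB differed by -0.38 with erlotinib. SDHB of complex II differed by 0.43 and 0.66. In complex I, NDUFS1 differed by 0.51 and 0.50, and NDUFB5 by -0.30 with erlotinib. In complex IV, COX5A differed by 0.29 and 0.48, and COX8A by 0.88 and NDUFA4 by 0.62 with osimertinib. The erlotinib calls of NDUFB5, COX5A and UQCRB and the osimertinib call of ATP5MC2 were lost in 12, 7, 4 and 11 of 18 other settings, those of UQCRB by leaving out single libraries (adjusted p between 0.109 and 0.154). What sets these differences was not tested.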

How the results depend on the processing

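Of 97 member changes followed through up to 19 other settings, 73 passed the threshold in every one, 24 did not in at least 1, and none changed direction. The count of members that differed between the drugs moved most. In PC9 cells, against 2 in the report, it was 1 with RLE scaling, 9 with the replicate block and 0 with DESeq2 (11 members at an unadjusted p under 0.05). In H1650 cells, against 6, it was 10 with upper quartile scaling, 17 with the replicate block and 11 with DESeq2. Same-numbered replicates deviated together weakly over all tested genes (r from -0.0553 to 0.211 over pairs of groups), and the numbers were not read as pairs. Some members still shifted alike in all 6 groups. CYC1 and ATP5F1D were higher in replicate 1 of every group, and COX7C and UQCRB in replicate 2. Whether the replicates are pairs was not settled, and the counts between the drugs depend on it. With the replicate block the other counts were 55 and 52 for PC9 erlotinib and osimertinib, 25 and 19 for H1650, 59 for the lines at T0, and 40 and 41 for the differences between the lines. The shares of all tested genes called with the block are not given beside these counts. The counts therefore do not show a change particular to the members.

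Leaving out each library in turn, the counts ranged from 39 to 51 for PC9 erlotinib, 40 to 49 for PC9 osimertinib, 10 to 18 for H1650 erlotinib, 9 to 14 for H1650 osimertinib, 0 to 2 and 0 to 8 between the drugs in PC9 and H1650 cells, 49 to 55 between the lines at T0, and 21 to 34 and 27 to 38 for the differences between the lines with erlotinib and osimertinib. The 0 counts had 15 and 14 members at an unadjusted p under 0.05 (edgeR). The PC9 count between the drugs was 1 without either PC9 T0 replicate or either PC9 erlotinib replicate. Members with few reads, such as NDUFV2 with 302 and NDUFA7 with 136 over all libraries, allow only large changes to be seen.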
